A study of Mus musculus with 44 samples.

Results

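RNA on GFP-tagged ribosomes of Cx3cr1-expressing cells (MG_TRAP) was compared with RNA of the whole homogenate (Input) in tamoxifen-treated mice. The samples were chosen by their labels, namely fraction MG_TRAP or Input with tamoxifen. This gave 16 of the 44 samples in the series, 8 in each fraction, with replicate letters D to K. Dorsal cortex and hippocampus were taken at postnatal days 28 to 29 from mice labelled CX3CR1-CreERT2 (+/-) x RPL10a-GFP flox (+/-), although the series design text writes the floxed allele as fl/fl. CreERT2 is a recombinase made to work once tamoxifen has reached the cell. Here it sat under the Cx3cr1 promoter and switched on a GFP fusion of the ribosomal protein RPL10a. Tamoxifen at 100 mg/kg was given on postnatal days 15, 17 and 19. Control mice of the same genotype (letters A to C, 3 Input and 3 MG_TRAP samples) received the vehicle of sunflower oil and ethanol per the labels, while the design text calls them untreated. The promoter also works in border macrophages and in some blood monocytes, so the tag was not limited to microglia by construction.

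Microglia are the resident macrophages of the brain. They keep contact with neurons through fractalkine and its receptor CX3CR1, sense nucleotides through purinergic receptors such as P2RY12, tag and engulf material through complement and phagocytic receptors, and break it down in acidified lysosomes. In translating ribosome affinity purification (TRAP) an antibody to GFP pulls down tagged ribosomes together with the mRNA they carry, and RNA that comes down without the tag adds to it. A higher level in MG_TRAP than in Input therefore means that the RNA was over-represented in the pulldown, and the pulldown from control mice is given as its background. Whether control mice held tagged ribosomes without tamoxifen was not tested, so this background need not be free of the tag.

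Each sample is a table of HTSeq read counts per gene. Assigned reads ranged from 3123775 to 27498161 over the 16 libraries, so that 3 counts, the number a count of 0 still allows, corresponded to 0.109 to 0.963 CPM (read counts scaled to library size, the limit covering counting error only). Letters D to F and G to K form a first and a second set by title style and file naming, and set was a term of the main model. Reads aligned to more than 1 place made up 24.9% to 47.3% in the tamoxifen libraries of the first set and 13.2% to 15.8% in those of the second set. Log2 CPM of replicate Input libraries correlated at a median of 0.983 in the second set and 0.724 in the first set, and replicate MG_TRAP libraries at 0.716 and 0.692. Xist and the Y-linked gene Ddx3y placed letter F apart from the other 7, with 20.98 CPM of Xist in its Input library and 46.0 in its MG_TRAP library. The MG_TRAP library of letter D had 0 counts of both genes. Whether a letter stands for 1 mouse is not stated, and p-values measure the spread between these samples.

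Microglial markers rose in the pulldown: all 30 on the list were higher. Presynaptic genes were lower in 21 of 24, erythroid genes in 5 of 6, astrocyte and oligodendrocyte markers each in 8 of 18 and inhibitory neuron markers in 6 of 16. Of 13582 genes tested, 3206 (23.6%) were called at an adjusted p under 0.05, 2083 (15.3%) of them higher in MG_TRAP and 1123 (8.27%) lower. The test was edgeR's quasi-likelihood test with Benjamini-Hochberg adjustment over all genes tested, and every adjusted p below comes from it. The higher group was the farther moved, with a median log2 fold change of 2.24 against -1.56 in the lower group, and 527 against 46 genes lay beyond 4 on the log2 scale. The median of all genes tested was -0.05. The libraries of the groups did not overlap in 1377 genes (10.1%): in 932 (6.86%) all 8 MG_TRAP libraries lay above all 8 Input libraries, and in 445 (3.28%) they lay below. The split of the calls depended on the scaling and the tool: with total counts in place of TMM factors, which moved the median of all genes by -0.40, 1490 genes were higher and 1996 lower. DESeq2 gave 2395 and 2166, limma voom 2710 and 2626, and no filter on low counts 2118 and 3157. RLE factors moved the median of all genes by -0.11 and gave 1862 and 1344. Over the letters left out one at a time the count of calls stayed between 2551 and 3704. With the first set alone it was 902, and in a fit of all 32 tamoxifen libraries, which pools the spread with the synaptosome libraries (pulldown and input), 923. A gene near 0 in Input passed the filter on low counts only where it was high in MG_TRAP, so in a list with untested members the counts of calls and the median describe the tested members and no more. Not tested were 11 of 26 listed chemokine and cytokine genes, 8 of 22 complement genes and 6 of 25 engulfment genes. Among other lists, 5 of 18 inhibitory checkpoint, 4 of 21 Toll-like receptor and 4 of 24 interferon response genes were not tested.

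Cx3cr1, the fractalkine receptor whose promoter drove the Cre (chromosome 9, 119901616 to 120069879 in GRCm38, minus strand), stood at 5.58 CPM in the lowest Input library, 9.25 at the median and 13.2 in the highest. In MG_TRAP the same values were 343, 730 and 2079 CPM, so that the groups did not overlap. The log2 fold change was 6.66 (SE 0.42, adjusted p = 5.63e-10). It was 8.19 with the first set alone and 5.78 with the second set alone, and the difference between sets was called (adjusted p = 0.0414). Tmem119, a membrane protein used to tell microglia from other macrophages (chromosome 5, 113793729 to 113800516, minus strand), went from 3.56 to 28.7 CPM in Input to 938 to 2975 CPM in MG_TRAP, a log2 fold change of 6.87 (SE 0.44, adjusted p = 5.56e-10). P2ry12, the purinergic receptor that guides microglial processes to ATP, rose by 6.77 (SE 0.40, adjusted p = 2.31e-10). All 30 genes of a list of homeostatic microglial markers were tested and all 30 were higher, with a median log2 fold change of 6.63 and a range from 4.32 for Tgfbr1 to 7.37 for Ltc4s. In 29 of the 30 the groups did not overlap. The 30 markers together made up 1514 to 2756 CPM of an Input library and 52620 to 188000 CPM of an MG_TRAP library. Cst3, the cystatin C gene that other brain cells also use, made up a median of 63.4% of that sum in Input and 33.5% in MG_TRAP. The other 29 markers summed to 538 to 990 CPM in Input and 34750 to 113900 CPM in MG_TRAP. In bulk RNA fewer cells of a type and less RNA per cell cannot be told apart, in Input as in MG_TRAP.

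**Figure D1:**
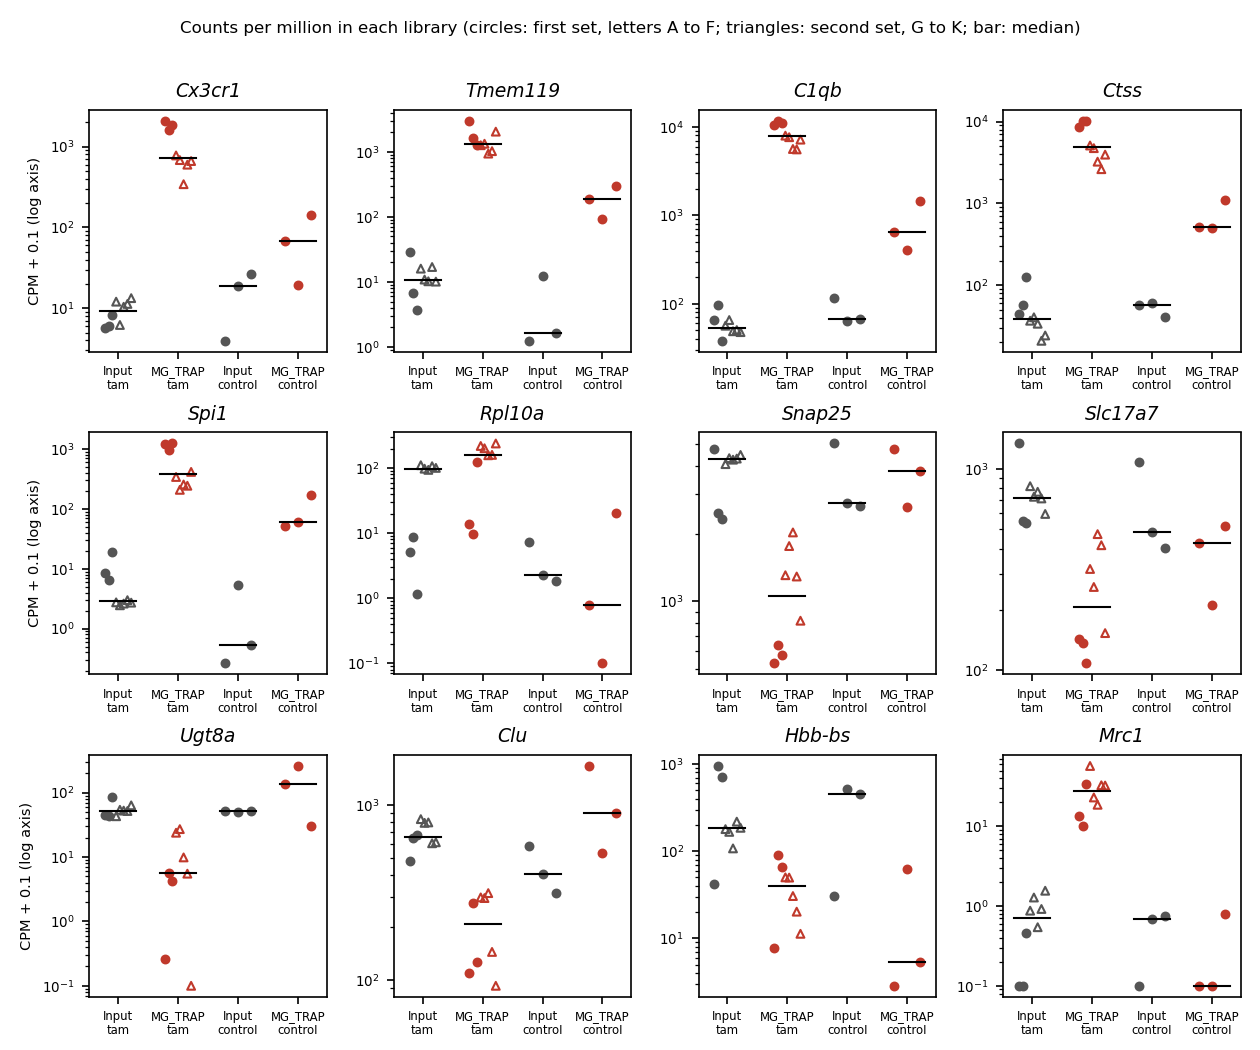
CPM plus 0.1 (log axis) of 12 genes in each Input (grey) and MG_TRAP (red) library of tamoxifen and control mice, with circles for the first set, triangles for the second set and bars at the median. Cx3cr1, Tmem119, C1qb, Ctss, Spi1 and Mrc1 lie higher in all 8 MG_TRAP than in all 8 Input libraries of tamoxifen mice, Snap25, Slc17a7, Ugt8a and Clu lower, and Rpl10a and Hbb-bs overlap.

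The gene with the largest log2 fold change under the naming rule was Cysltr1, a receptor for cysteinyl leukotrienes, at 8.14 (SE 1.00, adjusted p = 3.87e-06). It lay at 0 to 0.399 CPM in Input and 8.57 to 71.0 in MG_TRAP. Lgals9, which encodes galectin-9 (chromosome 11, 78962974 to 78984946, minus strand), stood at 1.07, 4.82 and 9.11 CPM in the lowest, median and highest Input library and at 660, 1090 and 2083 CPM in MG_TRAP, a log2 fold change of 7.87 (SE 0.46). Upk1b, a tetraspanin, rose by 7.98 (SE 0.64), and Pon3, a paraoxonase, by 7.53 (SE 0.79). The rest of the 12 largest were Lag3 (an inhibitory receptor), Ncf4 (a phagocyte oxidase subunit), Clec4a3 (a C-type lectin), Myo1f (a motor of leukocytes), Ltc4s (leukotriene C4 synthase), Samsn1 (a signalling adaptor), Abcc3 (an exporter) and Aif1 (the calcium-binding protein IBA1), with log2 fold changes from 7.29 to 7.48. Input medians were 0 CPM for Cysltr1 and 0.184 to 0.73 CPM for Upk1b, Pon3, Ncf4, Clec4a3, Myo1f and Abcc3, within the limit of 3 counts. The size and rank of their fold changes therefore depend on the prior count. The naming rule took only genes higher in each of the 8 letters. Among the 12 largest, Clec4a3 alone overlapped between the groups, at 0.57 CPM in its lowest MG_TRAP library and 0.757 in its highest Input library.

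By median TPM (reads per exonic length, scaled to the same total in every library), the most abundant RNAs of MG_TRAP were Cst3 at 50940, Actb at 39270, C1qb at 17090 and Tmsb4x at 16180. Cst3 encodes the protease inhibitor cystatin C, Actb and Tmsb4x encode beta-actin and the actin-binding thymosin beta-4, and C1qb a chain of complement C1q. In Input the same genes ranked 19, 8, 951 and 16 by median TPM. Ctss, Tyrobp, B2m, C1qa and Sparc completed the 10 highest of MG_TRAP together with Mir6236, whose fold change did not pass the test (0.44, adjusted p = 0.559). Input was led by the mitochondrial transcript mt-Cytb.

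**Figure D2:**
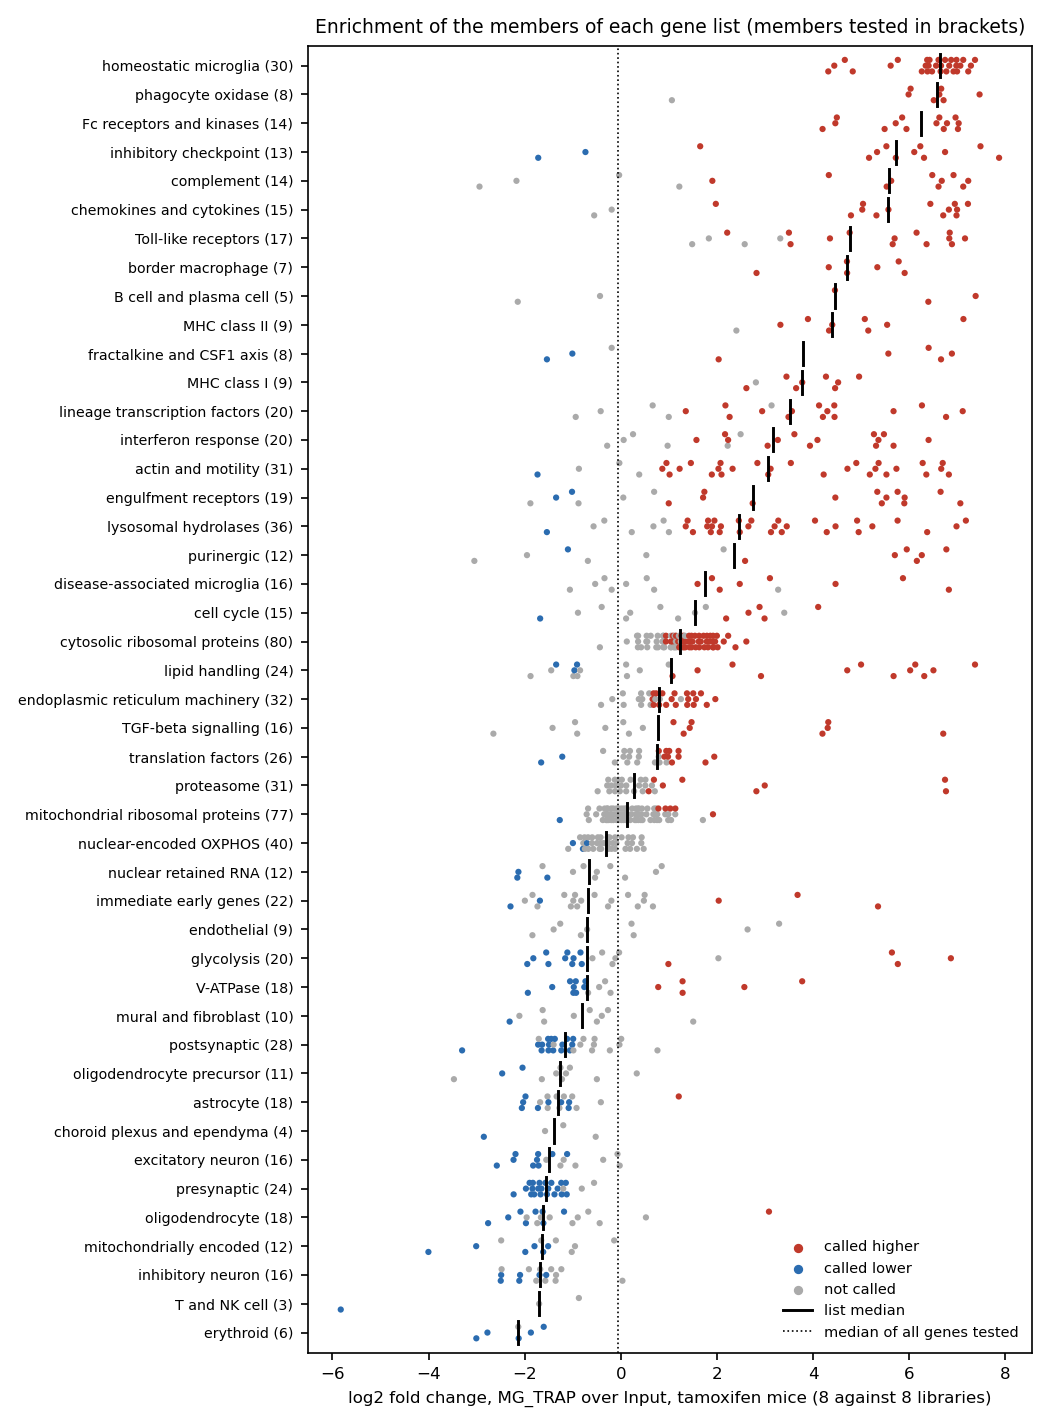
Log2 fold change (MG_TRAP over Input, 8 against 8 libraries) of every tested member of each gene list, with the list median as a black bar and the median of all 13582 genes tested (-0.05) as a dotted line. Homeostatic microglial markers lie between 4.32 and 7.37, while neuronal, astrocyte, oligodendrocyte and erythroid lists have medians below -1.

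Members that moved together were read at their promoters for a core motif of PU.1, the lineage factor of macrophages encoded by Spi1. The 7 letters GAGGAAG, on either strand, were searched in the 250 bases before RefSeq gene starts (GRCm38.p6). Of the genes tested, 10266 matched a promoter in the table by symbol, and 13% of them held the motif before at least 1 start. The share was 16.6% of 1613 matched genes called higher and 13.2% of 834 called lower. It was 26.5% of 407 matched genes called higher with a log2 fold change over 4, and 7 of 22 matched homeostatic markers. Median GC content of the windows was 54.4% in that strongly enriched group and 60.0% over all genes tested, and its part in the shares was not tested. Of all genes with a listed promoter, 12% held it. A match is a run of letters and not a bound site. The 4 promoters that follow are those of the homeostatic markers and the 12 largest genes with a match within 50 bases of the start, shown because the motif sits closest to the start there. Sequences run 5′ to 3′ towards the gene and end at the base before its start, with matches in capitals (CTTCCTC is the motif on the other strand).
Samsn1, chr16:75909267-75909516, minus strand: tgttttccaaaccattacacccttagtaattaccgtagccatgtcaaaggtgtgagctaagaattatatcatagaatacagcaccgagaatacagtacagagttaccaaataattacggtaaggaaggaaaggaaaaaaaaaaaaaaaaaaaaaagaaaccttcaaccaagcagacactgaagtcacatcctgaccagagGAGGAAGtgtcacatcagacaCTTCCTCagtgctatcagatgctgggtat
P2ry13, chr3:59210883-59211132, minus strand: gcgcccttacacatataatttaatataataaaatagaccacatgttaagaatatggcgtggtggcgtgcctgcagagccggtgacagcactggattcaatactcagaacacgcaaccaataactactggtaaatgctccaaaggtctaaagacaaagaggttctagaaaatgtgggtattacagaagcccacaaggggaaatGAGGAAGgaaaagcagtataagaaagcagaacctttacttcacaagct
Trem2, chr17:48346151-48346400, plus strand: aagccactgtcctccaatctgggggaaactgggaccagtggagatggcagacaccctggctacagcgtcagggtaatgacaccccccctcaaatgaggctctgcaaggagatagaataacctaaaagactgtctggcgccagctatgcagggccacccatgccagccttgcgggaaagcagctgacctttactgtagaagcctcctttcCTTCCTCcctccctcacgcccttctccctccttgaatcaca
Laptm5, chr4:130913066-130913315, plus strand: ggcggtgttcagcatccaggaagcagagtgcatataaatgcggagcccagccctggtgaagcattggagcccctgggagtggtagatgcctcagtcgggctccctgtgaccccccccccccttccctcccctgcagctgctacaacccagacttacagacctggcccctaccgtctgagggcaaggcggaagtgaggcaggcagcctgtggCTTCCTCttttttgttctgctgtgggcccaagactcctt

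Transcription factors of the macrophage lineage were higher as well. Of 20 tested, 15 were higher and none was lower (median log2 fold change 3.53). Spi1 itself stood at 2.36 to 18.9 CPM in Input and 209 to 1242 CPM in MG_TRAP and rose by 6.77 (SE 0.29, adjusted p = 2.36e-12). Irf5 and Irf8, interferon regulatory factors of myeloid cells, rose by 7.11 and 5.67, and Ikzf1, a zinc finger factor of blood lineages, by 6.27. Sall1, a factor that sets microglia apart from other macrophages, rose by 4.44 (SE 0.30). Mef2c, which neurons also make, had medians of 1105 CPM in Input and 1006 in MG_TRAP and did not pass the test (adjusted p = 0.359).

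Receptors of the survival and contact axes were higher, and their ligands were lower or did not pass the test. Csf1r, the receptor on which microglial survival depends, had 12.5, 31.0 and 44.5 CPM in the lowest, median and highest Input library and 1637, 2181 and 3961 CPM in MG_TRAP, a log2 fold change of 6.41 (SE 0.35). The receptor genes Csf3r and Csf2rb rose by 6.89 and 5.57, and Csf2ra by 2.04. On the ligand side Cx3cl1, which encodes fractalkine, stood at 419 to 1119 CPM in Input and 103 to 297 CPM in MG_TRAP, a log2 fold change of -1.54 (SE 0.27, adjusted p = 0.000283). Il34, a CSF1R ligand of neurons, fell by 1.01 on the log2 scale (SE 0.31, adjusted p = 0.0207, and up to 0.0615 without letter G, I or J), and Csf1 did not pass the test (-0.19, adjusted p = 0.918). In all 5 of 8 genes of this list were higher and 2 were lower. Exons of 49 of the 237 genes examined singly overlap a gene on the other strand, Csf1r, Cx3cr1, P2ry12, Lcp1, Irf5, Hk1 and Psmb8 among them, so their values are uncertain to that extent.

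In TGF-beta signalling the receptors Tgfbr1 and Tgfbr2 rose by 4.32 and 4.30, Tgfb1 by 6.71, and Nrros, which presents latent TGF-beta on microglia, by 4.196, within 8 of 16 list genes that were higher (6 with RLE factors or total counts). Tgfb2 and Tgfb3 had log2 fold changes of -0.95 and -2.65 and did not pass the test (adjusted p = 0.43 and 0.182). Of 13 inhibitory checkpoint genes 11 were higher and 2 were lower, with a median of 5.72. Lag3, Siglech and Havcr2, which encode receptors or lectins, rose by 7.48, 6.75 and 6.31, and Sirpa, the receptor for the "do not eat me" signal CD47, by 1.65 (SE 0.27). The ligands Cd200 and Cd47 were the 2 lower genes. Cd47 stood at 246 to 465 CPM in Input and 129 to 311 in MG_TRAP (log2 fold change -0.74, SE 0.20), with overlap between the groups.

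Purinergic genes were higher in 6 and lower in 1 of 12 tested, which is 50% and 8.33% beside 15.3% and 8.27% of all genes. P2ry12, P2ry13 and P2ry6 rose by 6.77, 6.26 and 6.16, Adora3, an adenosine receptor, by 5.95, and Entpd1, the ectoenzyme that degrades ATP, by 5.70 (SE 0.42). Adora1, an adenosine receptor of neurons, fell by 1.10 on the log2 scale (SE 0.26, adjusted p = 0.00334).

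Complement and Fc receptor genes were among the most enriched. The 3 chains of C1q, the protein that starts the classical complement cascade, rose together, with C1qa at 6.92 (SE 0.25), C1qb at 7.12 (SE 0.30) and C1qc at 7.23 (SE 0.26). C1qb had 38.1, 53.4 and 96.8 CPM in the lowest, median and highest Input library and 5564, 7803 and 11660 CPM in MG_TRAP. The complement receptor chains Itgam and Itgb2 rose by 6.61 and 6.48, and the C5a receptor C5ar1 by 6.68. In all 10 of 14 tested complement genes were higher and none was lower, while C3 was counted at a median of 0.0513 CPM in Input and 0 in MG_TRAP and was not tested. All 14 tested genes of the Fc receptor list were higher, with a median of 6.26, and in none did the groups overlap. Fcer1g, the shared signalling chain, rose by 7.03 (SE 0.48), and the receptors Fcgr2b, Fcgr3 and Fcgr1 by 7.01, 6.96 and 6.79. Btk, a kinase downstream of these receptors, rose by 6.57 (SE 0.88).

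Of 19 engulfment genes 13 were higher and 2 were lower. Trem2, a lipid-sensing receptor, and Tyrobp, its signalling partner, rose by 6.65 (SE 0.46) and 7.07 (SE 0.54). Trem2 stood at 2.52 to 22.9 CPM in Input and 443 to 1445 CPM in MG_TRAP, and no Input library reached any MG_TRAP library. Stab1, a scavenger receptor, rose by 5.91, Pros1, a bridging ligand, by 5.90, and Mertk, the receptor that reads it, by 2.74 (SE 0.33). Tyro3 and Adgrb1, further receptors for dying cells that neural cells make, had log2 fold changes of -1.35 and -1.01 (adjusted p = 0.000841 and 0.0221). Phagocyte oxidase genes were higher in 7 of 8, among them Ncf4, Rac2 and Vav1 at 7.46, 6.67 and 6.63. Rac1 did not pass the test (1.06, adjusted p = 0.063).

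Lysosomal enzymes and membrane proteins were higher in 29 of 36 and lower in 1, with a median log2 fold change of 2.47. Ctss, a cathepsin that trims antigen, stood at 20.8, 38.6 and 126 CPM in the lowest, median and highest Input library and at 2623, 4927 and 10190 CPM in MG_TRAP (6.99, SE 0.33, adjusted p = 7.88e-12). Ctsh and Cd68 rose by 7.18 and 5.76, and Ctsd by 4.47 (SE 0.32). The range within the list was wide: Gaa, the lysosomal enzyme of glycogen breakdown, was the 1 lower member, at 117 to 285 CPM in Input and 53.7 to 115 in MG_TRAP (-1.54, SE 0.22), without overlap.

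The proton pump that acidifies the lysosome changed by subunit. Of 18 V-ATPase genes 5 were higher and 9 were lower, with a median of -0.71. Tcirg1, the a3 subunit of lysosomes and phagocytes, rose by 3.77 (SE 0.71, adjusted p = 0.0005), Atp6v0e by 2.57 (SE 0.26), Atp6v0a2 by 1.29, Atp6v1g1 by 1.28 and Atp6v1f by 0.78, the last a call lost without any 1 of 7 letters (adjusted p up to 0.166). With total counts 3 were higher and 13 lower. Atp6v1g2, the G subunit isoform of neurons, stood at 434 to 1093 CPM in Input and 69.6 to 603 in MG_TRAP (-1.93, SE 0.31), and Atp6v1e1 fell by 1.43 on the log2 scale. The 2 G subunit isoforms thus moved in opposite directions, 1.28 (SE 0.24, adjusted p = 0.000421) for Atp6v1g1 and -1.93 (adjusted p = 9.3e-05) for Atp6v1g2.

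Sugar metabolism showed a like division between isoforms, with 4 of 20 glycolysis genes higher and 10 lower (median -0.70). The hexokinases Hk3 and Hk2 rose by 6.87 (SE 0.66) and 5.64 (SE 0.67), Slc2a5, a fructose transporter of microglia, by 5.76 (SE 0.42) and Ldhb by 0.99 (SE 0.23). Hk2 had 0.975 to 12.5 CPM in Input and 26.6 to 875 CPM in MG_TRAP. Hk1, the hexokinase most abundant in Input, stood at medians of 326 and 156 CPM (-0.98, SE 0.29, adjusted p = 0.0185, and 0.0524 without letter G). Eno2, the neuronal enolase, and Pfkm, a phosphofructokinase, had log2 fold changes of -1.95 and -1.82. Gapdh had medians of 85.0 and 30.1 CPM (-1.16, adjusted p = 0.0129, and 0.0519 without letter G), with the limit that it has many near-identical pseudogenes and the handling of reads with several alignments is not stated.

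Within the proteasome list Psmb8 and Psmb9, catalytic subunits of the immunoproteasome that makes peptides for MHC class I, rose by 6.77 (SE 0.41) and 6.75 (SE 0.50), from 0.356 to 4.79 and 0 to 1.33 CPM in Input to 114 to 605 and 33.4 to 185 CPM in MG_TRAP. Psmb10, the last of these catalytic subunits, rose by 1.28 (SE 0.20), and the activator genes Psme2 and Psme1 by 2.995 and 2.82. Of 31 genes tested 8 were higher and none was lower, against 5 higher and none lower with RLE factors and 5 higher and 3 lower with total counts. The constitutive subunit Psmb5 had a log2 fold change of -0.12 (adjusted p = 0.719). The list median was 0.28 with TMM scaling and -0.19 with total counts, so no direction is given for the list.

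**Figure D3:**
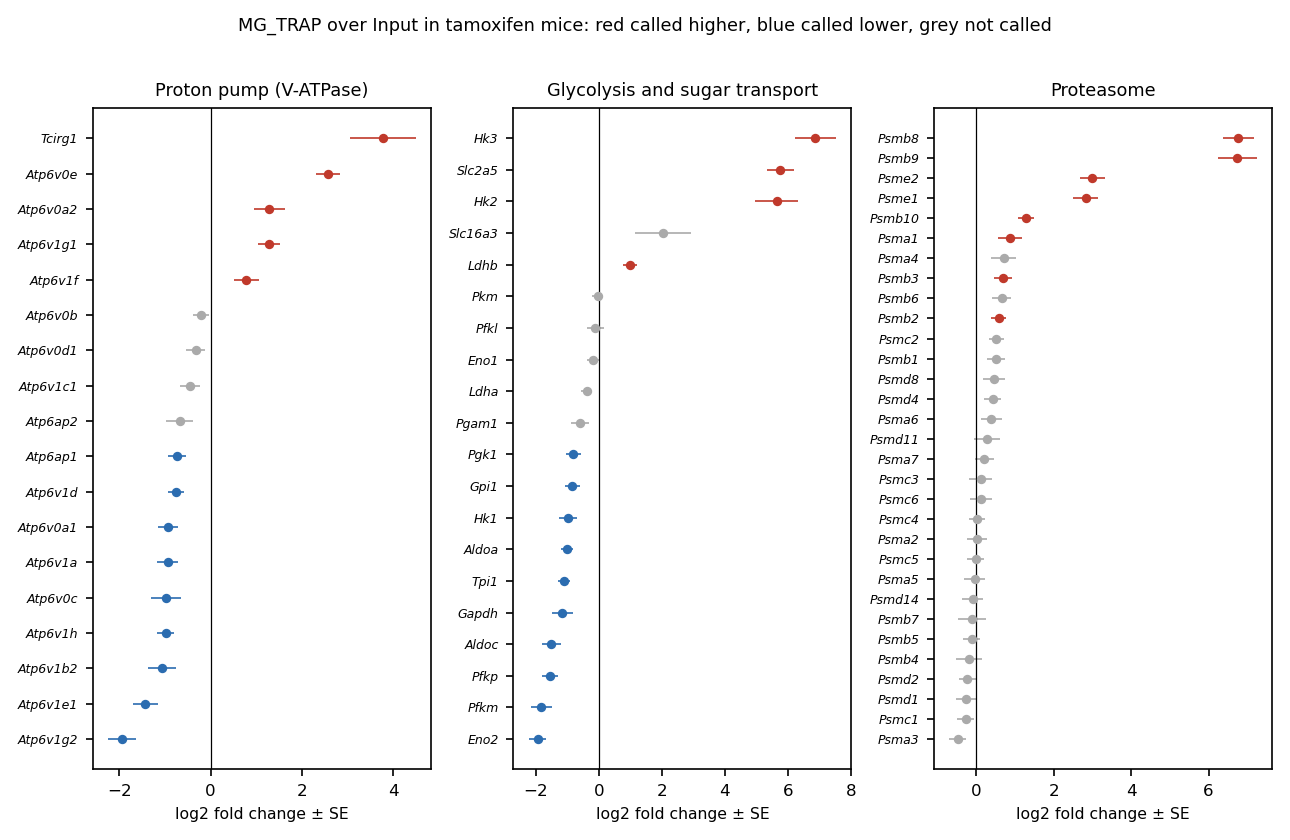
Log2 fold change with its SE (MG_TRAP over Input, tamoxifen mice) of each tested V-ATPase, glycolysis and proteasome gene, in red where called higher, blue where called lower and grey where not called. Tcirg1 (3.77), Hk3 (6.87), Psmb8 (6.77) and Psmb9 (6.75) stand apart on the right of lists whose medians are -0.71, -0.70 and 0.28.

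Antigen presentation genes were higher in both classes, 8 of 9 in MHC class I (median 3.78) and 8 of 9 in class II (median 4.40). B2m, the light chain of class I, stood at 69.0, 76.6 and 246 CPM in Input and 1231, 2262 and 9632 CPM in MG_TRAP (4.96, SE 0.31). The heavy chains H2-D1 and H2-K1, which are close paralogs, rose by 4.52 and 4.46, and H2-M3 by 4.27, a call lost without any 1 of 5 letters (adjusted p up to 0.0824). In class II H2-DMb1 and H2-DMb2, chains of the peptide-loading protein, rose by 7.13 and 5.08, Cd86, a costimulatory molecule, by 5.54 (SE 0.48), and Cd74, the invariant chain, by 5.15 (SE 0.47).

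Innate sensing genes followed. Of 17 Toll-like receptor genes 13 were higher and none was lower, with Cd180, Ly86, Cd14 and Unc93b1 at 7.16, 6.89, 6.84 and 6.83. Cd180 and Ly86 form a receptor complex, Cd14 hands lipopolysaccharide to Toll-like receptors, and Unc93b1 carries those of the endosome. Tlr4 had medians of 0.258 CPM in Input and 4.95 in MG_TRAP and did not pass the test (2.58, adjusted p = 0.248). Of 26 chemokine and cytokine genes 15 passed the filter, and 13 of those were higher, with Ccl12, Il1a and Ccl4 at 7.22, 6.99 and 6.95. Genes near 0 in Input could pass through MG_TRAP alone, so that number is not read as a result about the list. Ccl4 ranged from 2.72 to 98.5 CPM over the MG_TRAP libraries, and Ccl12 from 32.1 to 1161. The inflammatory cytokines Il1b and Tnf had a median of 0 CPM in MG_TRAP and were not tested. Interferon response genes were higher in 14 of 20, with Trim30a, Irf8, Ifi27l2a and Bst2 at 6.40, 5.67, 5.47 and 5.36. Ifi27l2a stood between 5.71 and 1405 CPM in MG_TRAP and overlapped Input at its lowest library.

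Genes of disease-associated microglia were higher in 8 of 16, with a median of 1.75. Those that rose most were Ccl6, a chemokine, at 6.83 (SE 0.49), Lyz2, lysozyme, at 5.87 (SE 0.38), Ctsd at 4.47 and Cd9, a tetraspanin, at 3.10. Apoe, an apolipoprotein that astrocytes also make, stood at 1141, 1408 and 2323 CPM in Input and 2232, 4134 and 8832 in MG_TRAP (1.60, SE 0.32), with overlap. Spp1 and Igf1 did not pass the test (-1.06 and -0.53, adjusted p = 0.586 and 0.664). Clec7a had a median of 0 CPM in both fractions, and Gpnmb had medians of 1.93 CPM in Input and 0 in MG_TRAP.

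Lipid handling genes were higher in 12 and lower in 3 of 24. Those that rose most make eicosanoids or membrane lipids: Ltc4s at 7.37, Lpcat2, a lysophospholipid acyltransferase, at 6.505, Alox5ap, the partner of 5-lipoxygenase, at 6.31, and Tbxas1, thromboxane synthase, at 6.13. The 3 lower genes, Hmgcs1, Srebf2 and Scd2, belong to sterol and fatty acid synthesis, with log2 fold changes of -1.34, -0.97 and -0.91. The call of Srebf2 was lost without any 1 of 6 letters (adjusted p up to 0.107), and with total counts 5 genes were lower.

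Actin and motility genes were higher in 27 of 31 and lower in 1, with a median of 3.07. Lcp1 and Fermt3, which bundle actin and activate integrins in leukocytes, and Rac2, a GTPase, rose by 6.83, 6.70 and 6.67, and Arhgap45 by 6.36. Actb stood at 680, 5300 and 6160 CPM in Input and 6183, 33820 and 54490 CPM in MG_TRAP (2.84, SE 0.29). The lower member was Wasl, the N-WASP gene, at 89.7 to 152 CPM in Input and 13.2 to 71.1 in MG_TRAP (-1.73, SE 0.32), without overlap.

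Cytosolic ribosomal proteins were higher in 46 of 80 and lower in none, with a median of 1.23, which was 0.81 with total counts. The higher count was 30 with total counts, 2 with the first set alone and 72 with the second set alone. Rps9, Rps27l, Rpl35 and Rps4x led at 2.61, 2.39, 2.23 and 2.14. Rpl10a, the gene fused to GFP in the transgene (chromosome 17, 28328471 to 28331033, plus strand), rose by 1.74 (SE 0.52, adjusted p = 0.0198, and 0.0508 without letter H), and reads from the transgene and the native gene cannot be told apart. Its Input libraries lay at 1.07 to 8.51 CPM in the first set and 93.7 to 111 CPM in the second set. Its MG_TRAP libraries lay at 9.67 to 122 and 157 to 239 CPM, so that the second set was the higher in both fractions. Ribosomal protein genes have many processed pseudogenes, and reads shared with them could have been dropped or split. Processed pseudogenes were called higher in 56 of 248 tested (22.6%, beside 15.3% of all genes).

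Translation factors were higher in 10 of 26 and lower in 2, or in 4 and 3 with total counts. The main counts are 38.5% and 7.69% of the list beside 15.3% and 8.27% of all genes. Pabpc1, the poly(A)-binding protein, rose by 1.95 (SE 0.29) and Eef1a1, the elongation factor, by 1.76 (SE 0.25). Its neuronal counterpart Eef1a2 fell by 1.66 on the log2 scale (SE 0.40), from 35.7 to 145 CPM in Input to 6 to 50.1 CPM in MG_TRAP, and Eif4a2 had a log2 fold change of -1.22. Secretory pathway genes of the endoplasmic reticulum were higher in 19 of 32 and lower in none, with a median of 0.80. The higher count was 13 with RLE factors and 8 with total counts, and 0 and 17 with the first and the second set alone. The disulfide isomerases Pdia3, P4hb and Pdia4 rose by 1.97, 1.79 and 1.67, and Sec61b, a subunit of the translocon, by 1.56, a call lost without any 1 of 5 letters (adjusted p up to 0.14).

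Cell cycle genes were higher in 5 and lower in 1 of 15. Mcm3, a replication helicase subunit, rose by 4.11 (SE 0.65), Cdk1 by 2.99 (SE 1.02), Hmgb2 by 2.89 and Mcm5 by 2.66. The call of Cdk1 was lost without any 1 of 6 letters (adjusted p up to 0.0999) and that of Mcm5 without any 1 of 4 (up to 0.0968), and with total counts 3 genes were higher. Stmn1, which regulates microtubules and is abundant in young neurons, fell by 1.68 on the log2 scale, and Mki67, the proliferation marker, did not pass the test at medians of 1.16 CPM in Input and 0.399 in MG_TRAP (adjusted p = 0.908). Immediate early genes were higher in 3 of 22 and lower in 2, which is 13.6% and 9.09% of the list beside 15.3% and 8.27% of all genes. Atf3, Zfp36 and Btg2 rose by 5.35, 3.68 and 2.04, while Egr1 and Egr3, which follow neuronal activity, had log2 fold changes of -2.29 and -1.68 (Egr3 not called without any 1 of 4 letters, adjusted p up to 0.0692).

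On the lower side the genes with the lowest log2 fold changes under the naming rule came from several sources. Cort, the neuropeptide cortistatin (chromosome 4, 149125034 to 149126763, minus strand), stood at 4.03, 17.5 and 162 CPM in Input and 0, 2.13 and 6.39 CPM in MG_TRAP (-3.71, SE 1.10, adjusted p = 0.0182, and 0.0502 to 0.0603 without letter E or F). Tmem35a, a chaperone of nicotinic receptors, had a log2 fold change of -3.65 (SE 1.15), Hist3h2ba, a histone gene, -3.60 (SE 0.93), and Gabrb2, a GABA-A receptor subunit, -3.30 (SE 1.03). Tmem35a, Gabrb2 and Hist3h2ba did not overlap between the groups, and Cort did. The list of 12 went on with Stk32c, mt-Rnr2, Hbb-bt, Gpr61, Ccn3, Ttr, Galnt18 and Sgtb, between -3.11 and -2.82. The naming rule took only genes lower in each of the 8 letters. The calls of Tmem35a (without letter E, F or I, adjusted p up to 0.0703), Gpr61 (without E or F, up to 0.0669) and Galnt18 (without F, 0.0583) were each lost with 1 letter left out.

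Synaptic genes were the lists with most lower members. Of 24 presynaptic genes 21 were lower and none was higher, with a median of -1.55. Snap25, a SNARE protein of vesicle release, stood at 2313, 4282 and 4736 CPM in Input and 531, 1056 and 2024 CPM in MG_TRAP (-1.90, SE 0.26, adjusted p = 1.37e-05), so the groups did not overlap. Vamp1, Pclo and Nrxn2, which serve vesicle fusion, the active zone and adhesion, had log2 fold changes of -2.23, -1.97 and -1.86. Of 28 postsynaptic genes 16 were lower and none was higher (median -1.17), with Gabrb2 at -3.30, Nrgn, a calmodulin-binding protein of spines, at -1.72 and the glutamate receptor genes Gria3 and Gria2 at -1.65 and -1.64.

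Excitatory neuron markers were lower in 9 of 16 (median -1.49) and inhibitory neuron markers in 6 of 16 (median -1.68), and none was higher. The vesicular glutamate transporter Slc17a7 stood at 541 to 1336 CPM in Input and 108 to 474 in MG_TRAP (-1.71, SE 0.31). Slc17a6, a second such transporter, Neurod6, a cortical factor, and Cck, a neuropeptide, had -2.58, -2.23 and -2.19, with Slc17a6 not called without any 1 of 5 letters (adjusted p up to 0.095). Npy, Pvalb, Sst and Calb2, which mark classes of interneurons, had -2.50, -2.49, -2.11 and -2.10. Summed over the list, excitatory markers made up 6285 to 14800 CPM of an Input library and 1032 to 4863 CPM of an MG_TRAP library, so neuronal RNA was reduced but present in each pulldown.

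Astrocyte markers were lower in 8 and higher in 1 of 18 (median -1.31), with 12 lower with total counts and 0 with the first set alone. Acsbg1 (not called without any 1 of 5 letters, adjusted p up to 0.0952) and Mlc1 had log2 fold changes of -2.06 and -2.03, Gja1, the gap junction protein, -1.98 (adjusted p up to 0.0692 without letter E or F), and Clu, clusterin, -1.72 (SE 0.27), with Clu at 479 to 831 CPM in Input and 92.7 to 314 in MG_TRAP. The higher member was Glul, glutamine synthetase, at 104 to 264 CPM in Input and 364 to 714 in MG_TRAP (1.21, SE 0.22, adjusted p = 0.000407). Oligodendrocyte markers were also lower in 8 and higher in 1 of 18 (median -1.62). Ugt8a, an enzyme of myelin lipid synthesis, stood at 42.9, 52.1 and 86.4 CPM in Input and 0, 5.47 and 27.0 CPM in MG_TRAP (-2.76, SE 0.84, adjusted p = 0.0212, and up to 0.0589 without letter E or F), without overlap. Cldn11 and Mog had -2.34 and -2.09, with Mog not called without any 1 of 5 letters (adjusted p up to 0.11). Trf, transferrin, went against its list, from 12.5 to 332 CPM in Input to 97.8 to 1598 in MG_TRAP (3.08, SE 0.45), with overlap. Mbp, the myelin basic protein gene, did not pass the test (0.52, adjusted p = 0.591). Of the precursor markers C1ql1 and Cspg5 were lower, in 11 tested, and the call of C1ql1 was lost without any 1 of 7 letters (adjusted p up to 0.0936).

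Vessel markers showed little that passed the test. Of 9 tested endothelial genes 0 were called by edgeR's quasi-likelihood test, 2 had an unadjusted p under 0.05, DESeq2 called 2 and limma voom 0. The endothelial list summed to 449 to 627 CPM in Input and 437 to 1000 CPM in MG_TRAP, but Bsg, which many cell types express, made up a median of 84.7% and 89.9% of it. The 17 others together had 54.2 to 92.7 CPM in Input and 36.2 to 145 CPM in MG_TRAP. Per length, Cldn5 and Cdh5 had medians of 4.70 and 0.613 TPM in Input and both a median of 0 TPM in MG_TRAP. Pecam1 stood at a log2 fold change of 3.29 (adjusted p = 0.0712). Igfbp2 was lower among 10 mural and fibroblast genes (10% of the list, beside 8.27% of all genes), and Ttr, which the choroid plexus makes, among 4 of choroid plexus and ependyma (25%). Ttr stood at 137 to 1522 CPM in Input and 11.1 to 164 CPM in MG_TRAP (-2.85, SE 0.52). Erythroid genes were lower in 5 of 6 (median -2.13), with the globins Hbb-bt, Hbb-bs and Hba-a1 at -3.01, -2.77 and -1.87, the last not called without letter E (adjusted p = 0.0543). The pairs Hbb-bt and Hbb-bs and Hba-a1 and Hba-a2 are near-identical copies, so single values are uncertain.

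Mitochondrially encoded genes were lower in 6 of 12 and higher in none (median -1.64), in 11 with total counts and in 0 with the first set alone, with mt-Nd3, mt-Rnr2, mt-Cytb and mt-Nd2 at -4.00, -3.01, -1.99 and -1.80. Nuclear-encoded subunits of the respiratory chain were lower in 3 of 40 (Atp5g3, Ndufv1 and Atp5b) and higher in none, with a median of -0.31. That is 7.5% of the list beside 8.27% of all genes, and the lower count was 9 with RLE factors, 17 with total counts and 22 with the second set alone. Nuclear retained RNA was lower in 3 of 12, namely Meg3 at -2.15, Malat1 at -2.13 and Snhg11 at -1.53. Mitochondrial ribosomal proteins were higher in 5 and lower in 1 of 77, which is 6.49% and 1.3% of the list beside 15.3% and 8.27% of all genes. The counts were 2 and 4 with total counts and 4 and 6 with the second set alone, and the list median turned from 0.12 to -0.28 with total counts.

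Markers of other macrophages and of blood cells were read beside the microglial result, and their part in it was not tested. Of 14 border macrophage markers 7 passed the filter on low counts, with Input medians from 0.253 CPM for Lyve1 to 6.46 CPM for Dab2. Since such genes could pass through MG_TRAP alone, their number called is not read as a result. Mrc1, the mannose receptor, stood at 0, 0.609 and 1.46 CPM in Input and 10.0, 27.6 and 57.0 CPM in MG_TRAP (5.78, SE 0.79), and Cbr2 and F13a1 rose by 5.34 and 4.71, with F13a1 not called without any 1 of 4 letters (adjusted p up to 0.0849). Cd163 had a median of 0 CPM in MG_TRAP. The 14 markers together made up 213 to 581 CPM of an MG_TRAP library, against 34750 to 113900 CPM for the homeostatic microglial markers without Cst3. None of the 14 monocyte and neutrophil markers passed the filter, and S100a8, S100a9 and Ly6c2 had a median of 0 CPM in MG_TRAP. Their sum reached 15.6 CPM in Input and 88.3 in MG_TRAP.

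Of T and NK cell markers 3 of 16 were tested. Cd4, the 1 called, had 0 to 13.5 CPM in Input and 0 to 0.731 in MG_TRAP (-5.83, SE 1.34), while Cd3e had a median of 0. Among B cell and plasma cell markers, 5 of 16 tested, Ighm, the immunoglobulin heavy chain, stood at 16.7, 47.4 and 74.2 CPM in Input and 597, 831 and 2421 CPM in MG_TRAP (4.46, SE 0.39, adjusted p = 3.6e-08). Cd79b, a chain of the B cell receptor, rose by 6.40 (SE 0.87), and Jchain, which joins secreted antibodies, by 7.38 (SE 1.503) from 0 to 0.612 CPM to 0 to 99.7 CPM. The B cell markers Ms4a1, Cd79a and Pax5 had a median of 0 CPM in MG_TRAP.

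The 2 sets of tamoxifen mice had no gene called in opposite directions. With the first set alone (3 against 3) 902 of 11918 genes were called (7.57%, with 5.94% higher and 1.63% lower). With the second set alone (5 against 5) they were 3612 of 14971 (24.1%, with 14.3% higher and 9.83% lower). Lower counts with the first and the second set alone were 6 and 20 for presynaptic genes and 6 and 11 for postsynaptic genes. For excitatory neuron markers they were 3 and 7 and for inhibitory neuron markers 2 and 7. Astrocyte markers had 0 and 5, oligodendrocyte markers 2 and 7 and erythroid genes 1 and 5. Among 11496 genes in both fits, 618 were higher in both, which is 92.5% of those higher in the first set and 31.3% of those in the second set, 125 were lower in both (65.1% and 11.1%), and 0 had opposite calls. The difference itself, tested as the interaction of set and fraction, was called for 64 of 13582 genes (0.471%, with 0.287% higher and 0.184% lower in the second set). Those whose log2 enrichment was lowest in the second set relative to the first were Mlxipl, a sugar-responsive factor, at -8.58 (SE 1.25), Rrad at -8.46, Capn3 at -7.20, H2-DMb1 at -7.05 and Lat2 at -6.48. All 5 were higher in MG_TRAP in both sets. Cx3cr1 (-2.30), Siglech (-2.07) and Lag3 (-4.11) were among the 64 as well, and they too were higher in both sets. Mlxipl, Rrad and H2-DMb1 were at 0 CPM in the 3 Input libraries of the first set, so their fold changes there depend on the prior count. In the other direction Kcng1, Pdyn, Prr36, Gpr158 and Rasgrf2, which are expressed in neurons, differed by 12.21, 8.15, 7.41, 5.36 and 5.001. Over these 5 genes MG_TRAP libraries lay at 0 to 3.45 CPM in the first set and at 1.17 to 120 CPM in the second set. The count of 64 fell to 1 or 2 when any letter of the second set was left out, was 543 without letter D and 300 without letter E, 774 by DESeq2 and 0 by limma voom, where 1749 had an unadjusted p under 0.05.

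Control mice gave the background of the same pulldown. In the 3 against 3 control samples 21 of 13796 genes were called (0.152%), 20 of them higher in MG_TRAP (0.145%) and 1 lower (0.00725%), with 1373 genes at an unadjusted p under 0.05. The count was 1 without letter A or letter C, and DESeq2 called 424 (3.22%, with 2.31% higher and 0.903% lower). The homeostatic markers had a control median of 3.22, and 5 of the 30 were called higher. In tamoxifen mice of the first set, also 3 against 3, the median was 7.09 and 28 were called higher. The control test took its spread from the 12 Input and MG_TRAP libraries of the first set. The tamoxifen test used the tamoxifen libraries alone, so these counts of calls are not like for like. Cx3cr1 stood at 3.85, 18.8 and 26.5 CPM in the lowest, median and highest control Input library and at 19.5, 67.7 and 141 CPM in control MG_TRAP, a log2 fold change of 2.23 (SE 0.77, adjusted p = 0.357) with overlap. Tmem119 had 1.15 to 12.1 CPM in control Input and 92.8 to 297 CPM in control MG_TRAP, with no overlap, a log2 fold change of 5.30 (SE 1.09) and an adjusted p of 0.0649. The difference between treatments was not called for Tmem119 (1.99, adjusted p = 0.478) or Cx3cr1 (adjusted p = 0.113). Each control MG_TRAP library lay below each tamoxifen MG_TRAP library for both genes. Control and tamoxifen libraries were scaled in separate tables.

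The genes most enriched in control MG_TRAP differed in part from those of tamoxifen mice. Zbtb48, a telomere-binding factor, stood at 0.164 to 0.87 CPM in control Input and 156 to 220 CPM in control MG_TRAP (8.5, SE 1.09, adjusted p = 0.0029), and at 6.91 to 60.4 CPM in tamoxifen MG_TRAP. Atg7, an autophagy enzyme, reached 1397 to 3428 CPM in control MG_TRAP from 2.95 to 18.3 CPM in control Input (8.19, SE 1.01, adjusted p = 0.0029), and 71.6 to 3258 CPM in tamoxifen MG_TRAP (4.56, SE 0.48). Ets1, Cd300c2 and Arhgap30, genes of immune cells, rose by 8.36, 7.36 and 7.10 in control mice and by 5.76, 5.98 and 6.05 in tamoxifen mice. The single gene called lower in control MG_TRAP was Golga4, at -3.77 (SE 0.67). The control median of all genes tested was -0.08. Presynaptic genes had a control median of -0.39, astrocyte markers of 0.77 and oligodendrocyte markers of 0.48, against -2.35, -2.14 and -1.69 in tamoxifen mice of the same first set. Ribosomal proteins had a control median of -1.09 against 1.66 in tamoxifen mice of the first set.

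The difference between treatments, tested as an interaction over the 12 libraries of the first set, was called for 2 of 13796 genes (0.0145%), with 2131 at an unadjusted p under 0.05. Siglech, a microglial lectin, had an enrichment larger by 5.86 on the log2 scale in tamoxifen mice (SE 0.91, adjusted p = 0.0471), with 65.7 to 226 CPM in control MG_TRAP and 1831 to 2016 CPM in tamoxifen MG_TRAP of the first set. Cib1, a calcium-binding protein, had 11.3 to 17.9 CPM in control MG_TRAP and 283 to 630 CPM there (5.99, SE 0.95). Both calls were lost with RLE factors or total counts and when any letter from A to F was left out, with 2135 and 2332 genes at an unadjusted p under 0.05 for the scalings. DESeq2 called 806 genes (6.23%, with 2.89% larger and 3.34% smaller in tamoxifen mice). Control libraries exist in the first set alone.

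**Figure D4:**
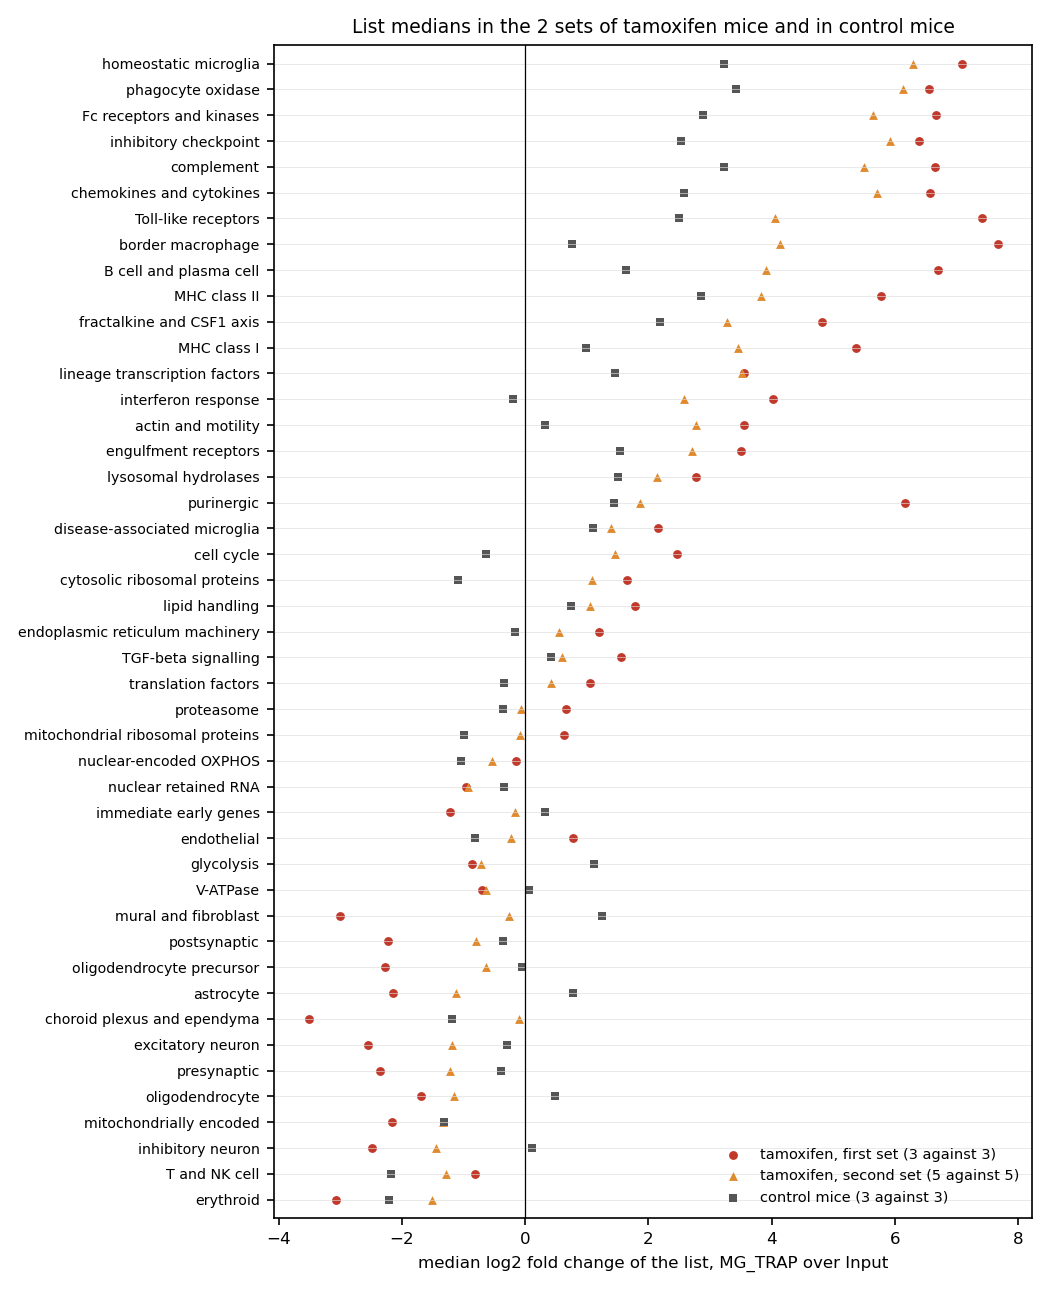
Median log2 fold change (MG_TRAP over Input) of each gene list in tamoxifen mice of the first set (circles, 3 against 3), of the second set (triangles, 5 against 5) and in control mice (squares, 3 against 3). Homeostatic markers lie at 7.09, 6.30 and 3.22.

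Finally, the reads of each library were divided over the called genes. In tamoxifen mice the 2083 genes called higher held 7.90% to 12.4% of assigned reads in Input and 34.9% to 57.8% in MG_TRAP, and the 1123 called lower held 31.6% to 37.2% and 5.07% to 16.5%. Those shares describe the libraries that made the calls. In control MG_TRAP, which took no part in them, the higher genes held 14.1%, 15.5% and 19.5% of reads and the lower genes 26.3% to 34.9%, beside control Input at 9.01% to 11.7% and 30.8% to 33.5%. Among tamoxifen MG_TRAP libraries, letter I had the lowest share in higher genes (34.9%) and the highest in lower genes (16.5%). Genes called higher had a median exonic length of 3738 bases and genes called lower 4720, against 4466 for all genes tested, with median GC contents of 51.2%, 50.9% and 50.1%.

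**Figure D5:**
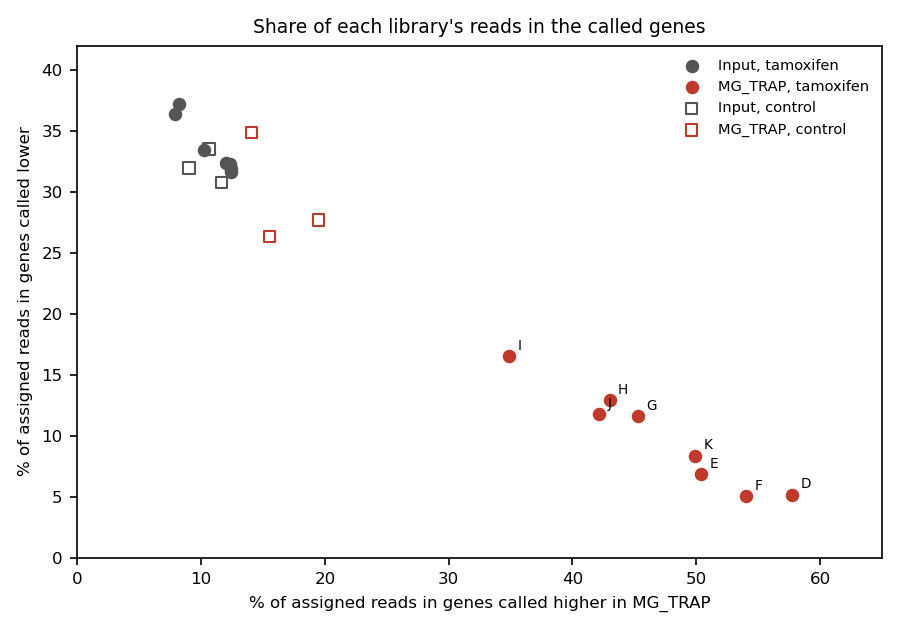
Percent of assigned reads in genes called higher (x axis) and called lower (y axis) in MG_TRAP for each library, with letters at the tamoxifen MG_TRAP libraries. Tamoxifen MG_TRAP libraries lie at 34.9% to 57.8% on the x axis, control MG_TRAP libraries at 14.1% to 19.5% and all Input libraries at or under 12.4%.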

How the data were processed

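The authors deposited HTSeq counts per Ensembl gene, whole numbers of reads from SMART-Seq v4 cDNA and NEBNext Ultra II libraries per the labels' protocols. FastQC 0.11.7, Trimmomatic 0.38, Bowtie2 2.3.5, STAR 2.7.0d, HTSeq 0.9.1 and edgeR are named in the submitters' processing notes. Their roles, the genome build, annotation and strand setting are not given in the sources used here, so reads of overlapping genes may be shared. The 50714 identifiers listed in both sets were used, all of them in GENCODE M21 (GRCm38), which gave symbols, positions and lengths. The other identifiers held 0.0577% to 0.372% of assigned reads. Rows that name no gene were left out, among them reads with no feature (1.99% to 11.3%). Testing was done by edgeR's quasi-likelihood method (edgeR 4.0.16, R 4.3.3) after TMM scaling. Set was a covariate, filterByExpr (minimum count 10) chose the genes, and calls had an adjusted p under 0.05. CPM values carry TMM scaling, and log2 CPM per library used a prior count of 2. TPM was computed from the counts and exonic lengths. No 2 replicate libraries held identical values. The test was also run on counts simulated with means and spread taken from these data. It recovered 6% of log2 changes of 1, 42% of 2, 68% of 3 and 82% of 4. A gene that did not pass the test may therefore still have changed. Alternatives were DESeq2 1.42.0, limma 3.58.1, other scalings, no filter, each set alone, a replicate block and each letter left out.

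Named genes followed a rule. Among called genes of the same direction in each letter, with a mean log2 CPM of 4 or more and no predicted-gene symbol, the 12 largest and the 12 lowest fold changes were taken. In each list the 4 called members farthest from 0 and all called members against the list's majority were named, and any other member with its test. The other comparisons gave their 5 largest and 5 lowest, and the levels their 10 highest. Cx3cr1, Rpl10a, Tmem119 and P2ry12 were always named. A few genes the rule selects are not reported here. The samples and lists were chosen with earlier results of these data known.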

Additional observations from a re-analysis of the deposited data

Results flagged for a closer look

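Of 60 groups of 8 libraries examined, for 28 of the named genes and the read shares, 6 held a library far from the rest, where chance gives about 1 in 20. In MG_TRAP, letter J was low for Ncf4 at 7.196 CPM against a median of 111.5 and for Clec4a3 at 0.57 CPM against 38.7. Letter K was high for Upk1b at 82.67 CPM against 49.26, and letter D was at 0 CPM for Hbb-bt against a median of 7.198. In Input, letter E was low for Stk32c at 11.96 CPM against 34.4, and letter I was high for Cysltr1 at 0.3985 CPM against a median of 0.

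The enrichment differed between the sets for 64 genes by the interaction test (edgeR's quasi-likelihood test, Benjamini-Hochberg adjusted). Differences of log2 enrichment, second set minus first, were 12.21 for Kcng1, 8.149 for Pdyn, 7.413 for Prr36, 5.361 for Gpr158 and 5.001 for Rasgrf2. They were -8.577 for Mlxipl, -8.458 for Rrad, -7.2 for Capn3, -7.048 for H2-DMb1 and -6.476 for Lat2. The sets also differed in depth and in the share of reads aligned to several places, and the part of these in the differences was not tested.

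The enrichment differed between tamoxifen and control mice for 2 genes, by 5.992 for Cib1 and 5.864 for Siglech, both larger in tamoxifen mice.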

How the results depend on the processing

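For MG_TRAP against Input in tamoxifen mice the 3206 calls became 5275 with no filter, 5336 with limma voom, 923 in the fit of all 32 tamoxifen libraries and 902 with the first set alone. The higher share of calls was 64.97%, 58.08% with RLE factors and 42.74% with total counts. The 64 differences between sets became 774 with DESeq2 and 0 with limma voom, and 1 to 543 with a letter left out (543 without D). The 21 calls in control mice became 207 with no filter, 424 with DESeq2 and 34 with limma voom, and 1 to 30 with a letter left out. The 2 differences between treatments became 0 with RLE factors or total counts, 282 with no filter, 806 with DESeq2 and 306 with limma voom, and 0 to 1 with a letter left out.

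Replicate letters were not treated as pairs, since the labels do not state it and the correlation of deviations of libraries with the same letter, 0.0124 to 0.199, was over 0.1 for letter D alone. All 8 correlations were positive and 7 of 8 letters matched best with their own, a hint of pairing from the data. The replicate block gave 3074, 41, 62 and 153 calls in the 4 comparisons (between fractions in tamoxifen mice, between sets, in control mice and between treatments). Of the 3206, 64, 21 and 2 main calls, 2690, 22, 21 and 2 were also called with the block. Of 220 named genes called between fractions in tamoxifen mice, 204 kept the call with the block and the rest lost it.

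Signs turned for the median log2 fold change of endothelial genes (0.7792 with the first set alone), of the proteasome (-0.1939 with total counts, -0.0597 with the second set alone) and for the median log2 fold change of mitochondrial ribosomal proteins (-0.2768 with total counts, -0.0858 with the second set alone, and -0.0256 to 0.2173 with a letter left out), and for Kcng1 (0.3976 with the second set alone). The cause was not tested. Of 4016 recomputed values of 237 named genes, 3656 kept direction and side of the threshold, 331 lost the call, 19 gained it and 10 reversed. None of the genes that reversed, Kcng1 included, was called; the others were the log2 fold change of Csf1 (0.1351 with limma voom, -0.6873 to 0.109 with a letter left out), Mbp (-0.1194 with the replicate block, -1.079 with the first set alone), Mir6236 (-0.1611 with the first set alone) and the log2 fold change of Mki67 (0.1924 in the fit of 32 libraries, -1.296 to 0.2278 with a letter left out). Calls of 26 named genes were lost without at least 1 letter, at adjusted p from 0.0502 to 0.166: Galnt18 without F, Hba-a1 without E, Gapdh and Hk1 without G, Rpl10a without H; Cort, Gja1, Gpr61 and Ugt8a without E or F; Il34 without G, I or J; Tmem35a without E, F or I; Gpr158 and Rasgrf2 without E, F or K; and Acsbg1, Atp6v1f, C1ql1, Cdk1, Egr3, F13a1, H2-M3, Mcm5, Mog, Sec61b, Slc17a6, Srebf2 and Zbtb48 without any of 4 to 7 letters. At 3 counts per library, levels under 0.109 to 0.963 CPM could not be told from 0.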
